A study of Mus musculus with 4 samples.

Results

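The genes described here encode the glycoproteins of the tectorial membrane and related secreted glycoproteins of the inner ear, namely *Tecta*, *Tectb*, *Otoa*, *Otog*, *Otogl*, *Ceacam16* and *Otol1*. They were taken by gene symbol, with earlier results of these data known, and all 7 were among the 23997 genes of the table. Expression was measured by RNA-Seq in 2 populations of EGFP+ cells sorted from P3 cochleae of C57BL/6 mice. Lgr5+ progenitors came from Lgr5-EGFP-IRES-creERT2 mice and Lgr6+ progenitors from Lgr6-EGFP-IRES-CreERT2 mice, so each population carried its own reporter allele and was defined by the cells in which that locus drives EGFP. Each population has 2 libraries by the sample labels, and the methods describe the replicates of a population as fractions of a single RNA extraction. The methods name more fractions than the labels list, so how many libraries a combined value rests on is not settled. The values are FPKM, which count sequenced fragments relative to the length of the transcript and the size of the library, and the table gives 1 combined value for each gene in each population. The spread between libraries is therefore not known, no test was possible, and every difference given here lacks a replicate check.

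The tectorial membrane is an acellular gel that lies over the organ of Corti and couples sound-driven motion of the epithelium to the hair bundles of the outer HCs. Its matrix is built of collagen fibrils embedded in noncollagenous glycoproteins, of which alpha-tectorin, beta-tectorin and CEACAM16 form a striated sheet, while otoancorin attaches the membrane to the cells of the spiral limbus. In the perinatal cochlea much of this matrix is secreted by the greater epithelial ridge (GER) and by SCs. Otogelin and otogelin-like are mucin-like proteins of the acellular membranes of both the cochlea and the vestibular organs, and otolin-1 is a collagen-like scaffold protein of the vestibular otoconia.

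A gene was kept when its FPKM was at least 1 in at least 1 population, which held for 13436 genes and for all 7 glycoprotein genes. Differences are given as log2(FPKM + 1) of Lgr6+ progenitors less the same value of Lgr5+ progenitors. Negative values thus mark genes that were higher in the Lgr5+ cells, and for genes of low level the added 1 makes the change look smaller than it is. A gene was counted as different when it was at least 1.5-fold apart on this scale. Among all kept genes 28.5% were higher in Lgr6+ progenitors, 23.3% were higher in Lgr5+ progenitors and 51.8% were apart in either direction by this measure, and the median difference was 0.03. Of the 7 glycoprotein genes 2 were counted as higher in Lgr6+ progenitors, *Otoa* and *Ceacam16*, and 2 as higher in Lgr5+ progenitors, *Tectb* and *Otol1*. These shares are near those of all kept genes, so the counts alone set nothing apart about the group. *Tecta*, *Otog* and *Otogl* were under 1.5-fold.

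The transcript of *Lgr5* was not higher in the population named for it, and that of *Lgr6* differed little. The paper describes the Lgr6+ cells as part of the inner pillar cells, within the wider Lgr5+ population. By q-PCR it found each marker higher in its own sorted cells than in cells without EGFP, which is a different comparison. *Lgr5* had an FPKM of 9.65 in the Lgr5+ cells against 25.0 in the Lgr6+ cells, and *Lgr6* had 2.06 and 2.90, which is under 1.5-fold. *Sox2*, the SC marker, had 139.6 in the Lgr5+ cells against 54.8 in the Lgr6+ cells. The sum of all FPKM was 754163 for the Lgr5+ population but 627932 for the Lgr6+ population, so scaling to the same sum would add 0.26 to the log2 difference of a well expressed gene and move the median of all kept genes from 0.03 to 0.27. Among the low nonzero values of genes with 1 annotated transcript, the narrow peak that stood out most from its flanks is called a step. It lay at 0.128 FPKM-kilobases in the Lgr5+ cells against 0.0399 in the Lgr6+ cells. The steps are used here to give the depth behind a value. Whether a step is 1 fragment of 1 library is not known.

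**Figure D1:**
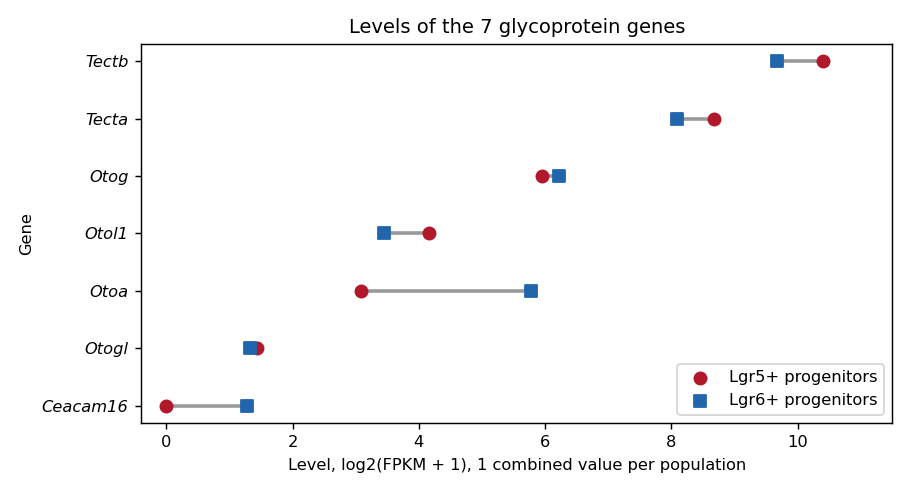
Level of each glycoprotein gene as log2(FPKM + 1) on the horizontal axis, with red circles for Lgr5+ progenitors, blue squares for Lgr6+ progenitors and a grey line joining the 2 values of a gene, each a single combined value without an error. *Tectb* and *Tecta* are highest in both populations, *Otoa* has the widest gap on this scale, from 3.09 to 5.78, and *Ceacam16* is listed at 0 in Lgr5+ progenitors.

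The tectorins were by far the most abundant of these transcripts. *Tectb*, which encodes beta-tectorin, a short protein made almost wholly of a zona pellucida domain, had an FPKM of 1347 in the Lgr5+ cells against 813 in the Lgr6+ cells, at rank 97 and rank 141 among all genes of each population. *Tecta*, which encodes the large alpha-tectorin, had an FPKM of 406 in the Lgr5+ cells against 271 in the Lgr6+ cells, at rank 316 and rank 377. Both were thus lower in Lgr6+ progenitors, by log2 differences of -0.73 and -0.58. *Tectb* passed 1.5-fold and *Tecta* lay at its edge, at 1.498-fold with the added 1 and at 1.5002 as a plain ratio of FPKM. Scaling to the same sum reduced the difference to -0.46 for *Tectb* and to -0.32 for *Tecta*, both then under 1.5-fold, and quantile normalization reduced it to -0.35 and -0.29. In sorted bulk cells fewer cells that make a transcript and less of it per cell cannot be told apart.

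The proportion between the tectorins differed little between the populations. The FPKM of *Tectb* was 3.32 times that of *Tecta* in Lgr5+ progenitors and 3.003 times in Lgr6+ progenitors, a ratio of levels per length that a single scaling factor for a population does not alter. *Tecta* and *Tectb* together made up 95.3% of the summed FPKM of the 7 genes in the Lgr5+ cells against 88.6% in the Lgr6+ cells. In the table *Tectb* lies on chr19:55180885-55196313 and *Tecta* on chr9:42329622-42399929 (GRCm38). Their longest annotated transcripts have 2725 and 7338 bases, with coding parts of up to 1020 and 6468 bases.

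*Otoa*, on chr7:121083438-121163089, had the largest difference of the genes above 0 in both populations. It encodes otoancorin, the protein at the face of the interdental cells where the tectorial membrane is anchored. Its FPKM was 7.51 in the Lgr5+ cells against 54.0 in the Lgr6+ cells, which is 7.20 times as high as a plain ratio and a difference of 2.69 on the log2(FPKM + 1) scale. The Lgr5+ value stood on 210 steps and the Lgr6+ value on 4833. Of the 13436 kept genes 236 had a difference at least as large, and of the 12724 kept genes above 0 in both populations 592 had at least the same ratio. The difference lay between 2.68 and 2.95 under the alternatives tried. Relative to *Tecta* and *Otog* the shift was large. *Tecta* exceeded *Otoa* 54.1 times in Lgr5+ progenitors and 5.01 times in Lgr6+ progenitors, and *Otog* exceeded it 8.12 times and 1.35 times.

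*Otog*, on chr7:46240987-46311434, encodes otogelin and has the longest transcript of the group, 10043 bases. Its FPKM was 61.0 in the Lgr5+ cells against 73.2 in the Lgr6+ cells, a difference of 0.26. It stayed under 1.5-fold under every alternative, the largest value being 0.52 after scaling to the same sum. *Otogl*, on chr10:107762310-107912134, encodes the related otogelin-like protein and was far lower, with an FPKM of 1.71 in the Lgr5+ cells against 1.49 in the Lgr6+ cells, a difference of -0.12. The sign of *Otogl* was not stable, since scaling to the same sum gave 0.04 and quantile normalization gave -0.48. Per length, *Otog* exceeded *Otogl* 35.6 times in Lgr5+ progenitors and 48.99 times in Lgr6+ progenitors, so otogelin transcripts prevailed in both.

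*Ceacam16*, on chr7:19852003-19861299, encodes a secreted member of the carcinoembryonic antigen family that binds the tectorins in the striated sheet. The table lists it at 0 for Lgr5+ progenitors, and its FPKM was 1.43 in Lgr6+ progenitors, which corresponds to 51 steps. One step for a transcript of its length, 1635 bases, would be an FPKM of 0.0890 in Lgr5+ progenitors. The interval of *Ceacam16* in the table ends 10127 bases short of the RefSeq gene at the higher coordinate, and the transcript length behind the steps comes from GENCODE. Since a 0 in such a table may come from an estimate that failed, no ratio is given, and the difference of 1.28 rests on the added 1. The same pattern, 0 in Lgr5+ progenitors and an FPKM from 1 to 2 in Lgr6+ progenitors, was seen in 238 kept genes, whereas 556 kept genes were listed at 0 in the Lgr5+ cells against 156 in the Lgr6+ cells. *Ceacam16* was therefore near the lowest level that counts here, and it dropped out when both populations had to reach an FPKM of 1. It passed the filter through Lgr6+ progenitors alone, so its direction was fixed by the filter.

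*Otol1*, on chr3:70007613-70028708, encodes otolin-1. Its FPKM was 16.8 in the Lgr5+ cells against 9.92 in the Lgr6+ cells, which stood on 258 and 487 steps. The gene was 1.696 times as high in Lgr5+ progenitors, a log2 difference of -0.71, close to that of *Tectb*. Scaling to the same sum reduced this to -0.46, under 1.5-fold, while quantile normalization left it at -0.74. A gene best known from the vestibular organs was thus measured above the filter in both cochlear populations.

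**Figure D2:**
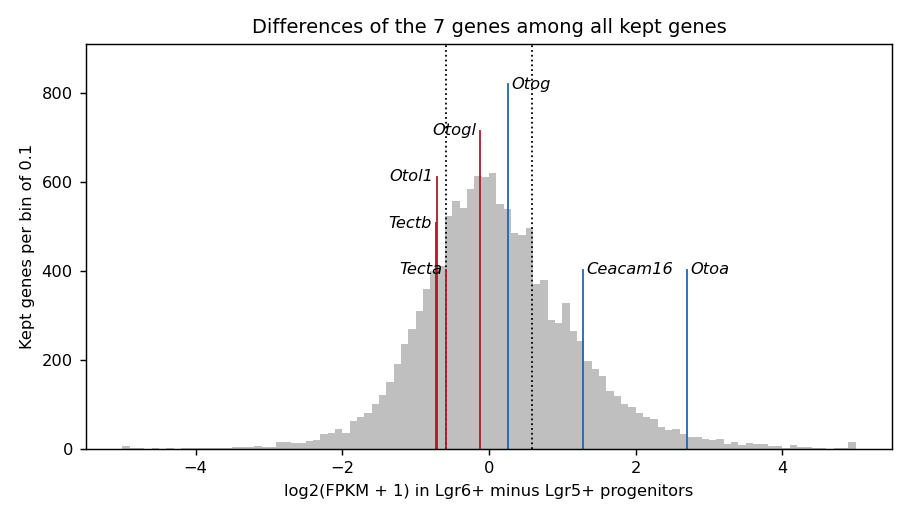
Number of kept genes per bin of 0.1 by log2(FPKM + 1) in Lgr6+ minus Lgr5+ progenitors, with values beyond 5 in either direction placed in the end bins and dotted lines at 1.5-fold. Vertical lines mark the 7 glycoprotein genes, in blue where higher in Lgr6+ progenitors and in red where higher in Lgr5+ progenitors, and only *Otoa* at 2.69 stands in the outer part of the distribution, at percentile 98.2.

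**Figure D3:**
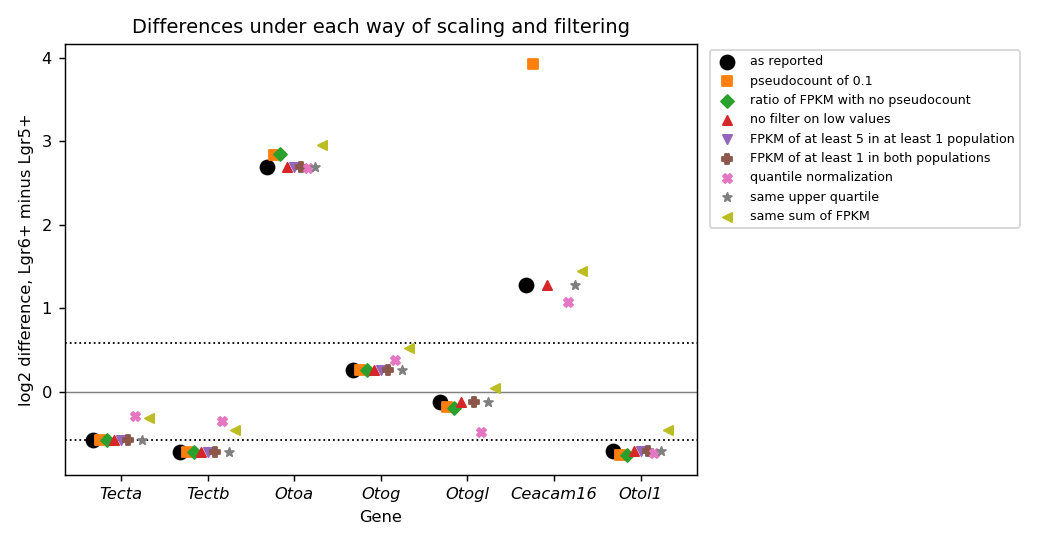
Log2 difference of each gene as reported (black circles) and under the 8 other ways of scaling, filtering or adding to the values, with dotted lines at 1.5-fold. *Otoa* keeps its place, *Tectb* and *Otol1* come inside the lower line after scaling to the same sum, as *Tectb* does after quantile normalization, *Tecta* stays at or inside it apart from the plain ratio and the same upper quartile, and *Ceacam16* reaches 3.93 with a pseudocount of 0.1.

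Promoter sequences from RefSeq (GRCm38.p6) were matched by symbol for 5 of the 7 genes, and they are shown so that the genes of higher FPKM in Lgr5+ progenitors, *Tectb*, *Otol1* and, at the edge of 1.5-fold, *Tecta*, can be read beside *Otoa*, higher in Lgr6+ progenitors, and *Otog*, which was under 1.5-fold. Each run holds 200 bases before the annotated start and 30 from the start on, 5′ to 3′ on the strand of the gene. Capitals mark 5 motifs searched on both strands, the TATA box (TATANAA), the core of SOX sites (ACAANG), the core of GATA sites (AGATAA), the CCAAT box (CCAAT) and the octamer of POU factors (ATGCAAAT). *Tecta* has a pair of annotated starts, and the one shown lies 18 bases from the start of the gene in the table, against 1761 bases for the other, whose window held none of the 5 motifs. The table starts *Tectb* 159 bases and *Otoa* 14 bases inside the RefSeq gene, whereas *Otog* and *Otol1* have the same interval in both. *Otogl* begins 1780 bases and ends 245 bases inside its RefSeq gene.

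*Tectb*, chr19:55180526-55180755, plus strand: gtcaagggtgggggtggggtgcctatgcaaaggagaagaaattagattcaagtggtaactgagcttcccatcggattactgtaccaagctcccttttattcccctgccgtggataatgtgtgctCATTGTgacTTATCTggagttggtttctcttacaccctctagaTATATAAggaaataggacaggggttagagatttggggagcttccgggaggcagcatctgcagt

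*Tecta*, chr9:42399918-42400147, minus strand: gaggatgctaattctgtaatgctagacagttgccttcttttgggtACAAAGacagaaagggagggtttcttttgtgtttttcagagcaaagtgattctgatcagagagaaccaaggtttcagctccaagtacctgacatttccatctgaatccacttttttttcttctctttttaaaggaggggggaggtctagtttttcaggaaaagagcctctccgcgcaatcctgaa

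*Otol1*, chr3:70007413-70007642, plus strand: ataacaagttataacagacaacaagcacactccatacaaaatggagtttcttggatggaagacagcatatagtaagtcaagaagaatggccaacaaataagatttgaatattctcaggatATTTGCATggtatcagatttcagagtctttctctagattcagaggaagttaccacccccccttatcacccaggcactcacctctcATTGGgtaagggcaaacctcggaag

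*Otoa*, chr7:121083224-121083453, plus strand: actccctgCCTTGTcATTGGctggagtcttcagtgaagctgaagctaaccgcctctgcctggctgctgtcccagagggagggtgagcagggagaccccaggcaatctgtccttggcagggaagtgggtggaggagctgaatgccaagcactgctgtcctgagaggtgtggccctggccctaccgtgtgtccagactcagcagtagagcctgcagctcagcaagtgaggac

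*Otog*, chr7:46240787-46241016, plus strand: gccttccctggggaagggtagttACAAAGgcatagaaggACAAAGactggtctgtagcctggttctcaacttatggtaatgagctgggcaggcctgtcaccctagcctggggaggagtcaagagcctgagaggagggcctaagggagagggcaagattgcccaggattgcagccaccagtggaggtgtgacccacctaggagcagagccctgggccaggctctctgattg

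The SOX core was found in 4 of the 5 genes, *Tectb*, *Tecta*, *Otoa* and *Otog*, for *Tecta* only in the window shown. It was found in 33.4% of all 32851 promoter windows of this length. It thus occurred in *Tectb*, higher in Lgr5+ progenitors, as well as in *Otoa*, higher in Lgr6+ progenitors. The TATA box was found only in *Tectb* among the 5, beginning 33 bases before its start, and in 8.99% of all windows. The window of *Tectb* also held a GATA core 67 bases before the start, which 8.56% of all windows held. The CCAAT box was found in *Otoa* and in *Otol1*, against 31.7% of all windows, and the octamer 80 bases before the start of *Otol1*, against 1.46%. No 2 of the motifs overlapped in these windows. The motifs were chosen with these sequences in view, and counts of genes are set beside shares of windows. No enrichment can therefore be read from them. These matches describe letters and not bound sites, and the absence of a match says only that these letters are not in the window.

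The levels kept nearly the same order in both populations. In Lgr5+ progenitors the order per length was *Tectb*, *Tecta*, *Otog*, *Otol1*, *Otoa*, *Otogl* and *Ceacam16*, and in Lgr6+ progenitors *Otoa* stood above *Otol1* while the other genes held their places. *Otogl* and *Ceacam16* were close in Lgr6+ progenitors, at 1.49 and 1.43. Without values of single libraries it cannot be said which neighbours in the order differ beyond their spread. Summed over the 7 genes, FPKM was 1840 in the Lgr5+ cells against 1224 in the Lgr6+ cells.

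The collagens of the tectorial membrane were compared as the fibrillar component of the matrix. Counts in this and the later lists stand beside 28.5% of all kept genes higher in Lgr6+ progenitors and 23.3% higher in Lgr5+ progenitors. All 7 collagen genes of this list were kept, 3 were counted as higher in Lgr5+ progenitors and 1 as higher in Lgr6+ progenitors, and their median difference was -0.57 against 0.03 over all kept genes. *Col2a1*, the chain of type II collagen, had an FPKM of 1055 in the Lgr5+ cells against 627 in the Lgr6+ cells, a difference of -0.75. *Col9a2*, a chain of type IX collagen, had 851 and 444, a difference of -0.94, and *Col11a1*, of type XI collagen, had 69.0 and 38.3, a difference of -0.83. The other type IX and type XI chains had smaller differences of the same sign, down to -0.31 for *Col11a2*. After scaling to the same sum the median of the collagens was -0.31 against 0.27 over all kept genes, and 1 collagen was then counted as higher in Lgr5+ progenitors. Quantile normalization gave -0.34 against -0.009, with 2 collagens so counted, and at a 2-fold threshold 0 were. *Col5a1*, of type V collagen, was the exception with an FPKM of 2.45 and 6.58.

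The FPKM of *Tectb* was 1.28 times that of *Col2a1* in Lgr5+ progenitors and 1.30 times in Lgr6+ progenitors. The transcripts of *Tectb* and *Col2a1* thus stood in nearly the same proportion in both populations, and this ratio too is untouched by a single scaling factor. The ratio of *Tectb* to *Col9a2* was 1.58 in the Lgr5+ cells against 1.83 in the Lgr6+ cells.

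Other members of the protein families stood below the tectorins. Of 14 genes with a zona pellucida domain, the tectorins included, 5 were kept with a median difference of -0.58, 2 were counted as higher in each population, and 6 were listed at 0 in both populations, among them *Umod*, which encodes uromodulin, the main protein of normal urine. *Umodl1* had an FPKM of 2.76 in the Lgr5+ cells against 0.476 in the Lgr6+ cells, and *Tgfbr3*, a TGF-beta co-receptor, had 0.309 and 2.96. Each of these passed the filter through 1 population alone, so its direction was fixed by the filter. When both populations had to reach an FPKM of 1, only 1 zona pellucida domain gene was counted as higher in each. Of 11 gel-forming mucin and von Willebrand D domain genes 6 were kept, 3 of them counted as higher in Lgr5+ progenitors and 1 as higher in Lgr6+ progenitors. Their median difference was -0.44, and when either population had to reach an FPKM of 5 only *Otog* was left. *Otog* was the highest, and no other kept member of that list exceeded an FPKM of 3 in either population, since *Bmper*, a BMP-binding protein, had 2.97 in the Lgr5+ cells against 0.248 in the Lgr6+ cells. *Muc5b*, an airway mucin, had 0.0286 and 1.08.

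Of 8 *Ceacam* genes 3 were kept. *Ceacam1*, with an FPKM of 1.20 and 0.969, was under 1.5-fold. The 2 counted as higher in Lgr6+ progenitors were *Ceacam10*, with 0.128 and 1.07, and *Ceacam16*. Both passed the filter through Lgr6+ progenitors alone, so their direction was fixed by the filter. All 3 stood near the filter. Of 24 genes with a C1q domain next to a collagen-like or related stretch, the family of *Otol1*, 23 were in the table and 11 were kept, 4 of them counted as higher in Lgr5+ progenitors and 6 as higher in Lgr6+ progenitors. This split turned to 3 and 2 when either population had to reach an FPKM of 5 or both had to reach 1, and the median difference then went from 0.96 to -0.42. *C1qtnf4*, a secreted factor, was the highest of them with an FPKM of 147 in the Lgr5+ cells against 93.1 in the Lgr6+ cells. *C1ql1*, which encodes a secreted synaptic ligand, had an FPKM of 3.98 in Lgr6+ progenitors and is listed at 0 for the Lgr5+ cells, while its relative *C1ql3* had 2.41 in Lgr5+ progenitors and 0.569 in the Lgr6+ cells.

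*Otoa* was set beside the genes of its own protein family and *Otol1* beside the other otoconial genes. *Strc*, which encodes stereocilin, a relative of otoancorin that links outer HC bundles to the tectorial membrane, had an FPKM of 4.16 in the Lgr5+ cells against 18.3 in the Lgr6+ cells, a difference of 1.90 in the same direction as *Otoa*. *Mslnl*, a mesothelin-like gene of this family, had 24.2 and 15.1, a difference of -0.64, and *Msln* was listed at 0 in both. Of 9 otolith and otoconia genes 7 were kept, 3 were counted as higher in Lgr5+ progenitors and 0 as higher in Lgr6+ progenitors, where scaling to the same sum gave 2 and 1, and the median difference was -0.53. *Sparc*, a matrix glycoprotein and the highest of the list, had 1078 and 854, and *Cyba*, an NADPH oxidase subunit, had 70.7 and 100.5. *Oc90*, which encodes otoconin, the main protein of otoconia, had an FPKM of 494 in the Lgr5+ cells against 107 in the Lgr6+ cells, a difference of -2.19. *Slc26a4*, the anion exchanger pendrin, had 4.58 and 1.19. *Otop1* and *Nox3*, both needed to form otoconia, were listed at 0 in both populations.

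**Figure D4:**
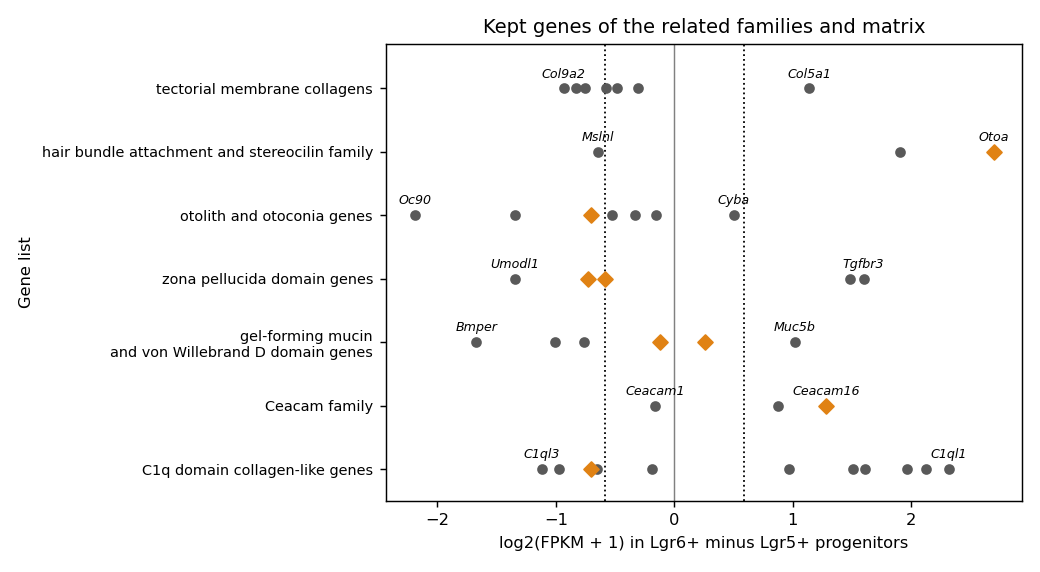
Log2(FPKM + 1) in Lgr6+ minus Lgr5+ progenitors of the kept genes in each list of related genes, with orange diamonds for the 7 glycoprotein genes, grey circles for the other genes, dotted lines at 1.5-fold and names at both ends of a list. The collagens lie between -0.94 and -0.31 apart from *Col5a1* at 1.14, and *Otoa* and *Strc* lie to the right of their family member *Mslnl*.

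Markers of the cells that the sorts could hold are given beside these genes. Among all kept genes 28.5% were counted as higher in Lgr6+ progenitors and 23.3% as higher in Lgr5+ progenitors. Among 8 GER markers 3 were counted as higher in Lgr6+ progenitors and 1 as higher in Lgr5+ progenitors, none was at 0, and their summed FPKM was 1619 in the Lgr5+ cells against 2038 in the Lgr6+ cells. *Calb1*, which encodes a calcium-binding protein, had 34.1 and 249.7, *Epyc*, which encodes the matrix proteoglycan epiphycan, had 29.3 and 140.7, and *Itm2a* had 9.06 and 39.2, differences of 2.84, 2.22 and 2.00 in the direction of *Otoa*. *Fkbp9*, a chaperone of the secretory pathway, had 255 and 125.1, a difference of -1.02 in the direction of the tectorins. *Cst3*, which encodes the protease inhibitor cystatin C, was the highest, with 988 and 1213. The GER list was thus itself divided, with a median difference of 0.11 that became 0.37 after scaling to the same sum and 0.39 after quantile normalization, where 4 markers were counted as higher in Lgr6+ progenitors.

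Of 12 SC markers 3 were counted as higher in each population, none was at 0, their summed FPKM was 1553 and 1630, and the median difference was -0.25, which became -0.11 after quantile normalization and turned to 0.02 after scaling to the same sum. *Hes5*, a Notch effector, had 505 in the Lgr5+ cells against 91.7 in the Lgr6+ cells, and *Npy*, a pillar cell marker, had 258 and 909.5. Of 4 markers of the cochlear roof, 2 were counted as higher in Lgr5+ progenitors and 1 as higher in Lgr6+ progenitors, and the summed FPKM was 569 and 300.4. *Otx2*, a transcription factor of the roof, had 5.42 and 0.445, *Vmo1* had 69.0 and 192, and *Oc90*, which also marks the roof, had the values given for the otoconial genes.

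Transcripts of HC markers were measured in both populations although the sorts were for progenitors. The paper found no Myo7a staining in the sorted cells, and by q-PCR less of the HC marker Brn3.1 than in cells without EGFP. Of the HC markers 10 were in the table, of which 7 were counted as higher in Lgr6+ progenitors and 0 in the other direction, none was at 0, the summed FPKM was 906 and 1212, and the median difference was 0.97. *Tmc1*, a subunit of the mechanotransduction channel, had 1.06 in the Lgr5+ cells against 23.1 in the Lgr6+ cells, and *Pvalb*, which encodes the calcium buffer parvalbumin, had 477 and 408. *Strc* is in this list as well as in the otoancorin family. Of 8 markers of otic mesenchyme and fibrocytes 6 were counted as higher in Lgr6+ progenitors and 0 in the other direction. None was at 0, the summed FPKM was 67.5 and 494, and the median difference was 2.25. For the HC and fibrocyte lists alike, the shares of all kept genes were 28.5% and 23.3%. *Otos*, the fibrocyte gene otospiralin, had 5.60 and 248.5, whereas *Pou3f4*, a transcription factor of otic mesenchyme, had 14.9 and 13.2.

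Of 8 macrophage markers 6 were counted as higher in Lgr6+ progenitors and 0 as higher in Lgr5+ progenitors. Each kept marker was under an FPKM of 1 in Lgr5+ progenitors, the highest being *C1qa* at 0.905. They passed the filter through Lgr6+ progenitors alone, so their direction was fixed by the filter. *Aif1*, *C1qb*, *C1qc*, *Csf1r*, *Ptprc* and *Tyrobp* were at 0 in Lgr5+ progenitors, and the summed FPKM of the list was 1.12 and 205. Of these, *Ptprc* was not kept, since it was near 0 in Lgr6+ progenitors as well, at 0.00814. *C1qb*, a complement component, was the highest, with 69.9 in Lgr6+ progenitors. The part of these other cells in the differences of *Otoa*, *Ceacam16*, *Tectb* and *Otol1* was not tested.

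**Figure D5:**
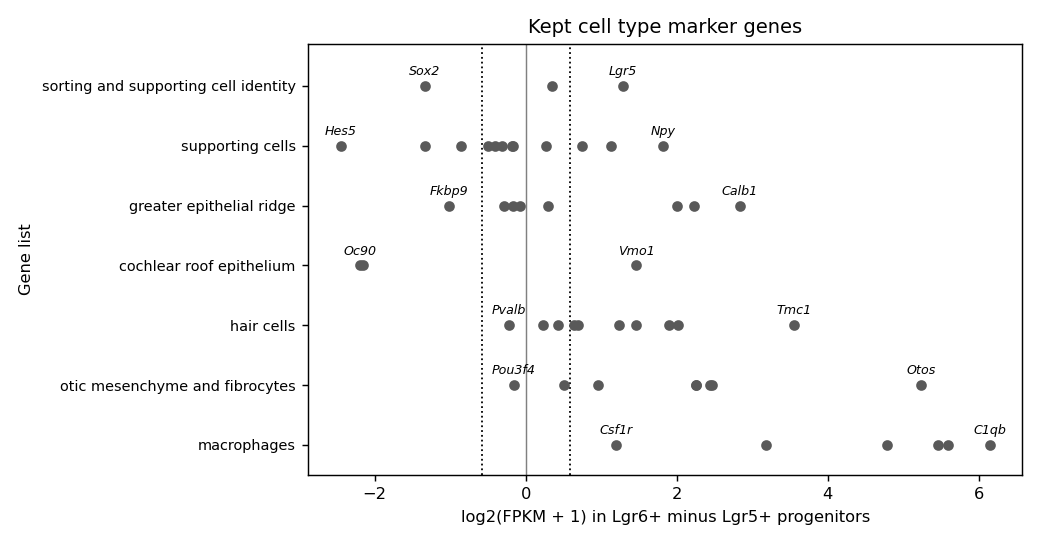
Log2(FPKM + 1) in Lgr6+ minus Lgr5+ progenitors of the kept genes in each marker list, 1 circle per gene, with dotted lines at 1.5-fold and names at both ends of a list. The macrophage markers, kept only through their Lgr6+ values, all lie to the right, from *Csf1r* at 1.20 to *C1qb* at 6.15. The SC and GER markers lie on both sides, and *Hes5* lies farthest to the left at -2.45.

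For each glycoprotein gene the kept genes nearest in the pair of log2(FPKM + 1) values were found, a likeness that rests on 2 values only. *Otoa* had the fewest neighbours, with 7 kept genes within a distance of 0.5, and the nearest was *Snap25*, a gene of vesicle fusion, with an FPKM of 7.63 in the Lgr5+ cells against 53.4 in the Lgr6+ cells, followed by *Plgrkt* with 6.65 and 63.1. The nearest to *Tectb* was *Nedd8*, a ubiquitin-like modifier, with 1328 and 795, then *Lsm7*, and *Tectb* had 52 such neighbours. *Tecta* had 84 neighbours within 0.5, led by *Mrpl54* and *Krtcap2*. *Otog* had 296, led by *Gng10* and *Gstm1*, *Otogl* had 489, led by *Lgals3bp* and *Gspt2*, *Ceacam16* had 527, led by *Gpihbp1*, and *Otol1* had 696, led by *Trib1* and *Pim3*.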

How the data were processed

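Cells were sorted by EGFP from P3 cochleae, and the authors made RNA-Seq libraries with a low-input SMART-Seq kit. The labels name Trimmomatic, TopHat and Cufflinks, without versions, and the genome mm10, whereas the study's methods name mm9. Of 22500 gene symbols shared with RefSeq GRCm38.p6, 98.8% of the deposited intervals overlapped the gene, against 12.7% of 20918 in NCBIM37, so positions were read as GRCm38 and are given from 1. The FPKM values that the authors deposited are 1 combined value per population, and no read counts per gene are given. The study gives a range of reads over all its libraries, which does not assign a depth to either population. Columns with the fold change, *p*-value and *q*-value of the authors' own comparison were not used.

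A limma fit had been planned only for a table with single libraries, so no test was run. Differences were taken on log2(FPKM + 1), with genes kept where either population reached an FPKM of 1, and counted at 1.5-fold. The glycoprotein genes, the lists of related genes and the marker lists were chosen with earlier results of these data known, and the motifs with the sequences in view. All 7 genes were named, as were *Lgr5*, *Lgr6* and *Sox2*, the genes at both ends and the highest gene of each list, and the 2 kept genes nearest to each of the 7, of which 1 is not reported here. *Col11a1*, *Col11a2*, *Otop1*, *Nox3*, *Slc26a4*, *Epyc*, *Itm2a*, *Otx2*, *Umod*, *Msln*, *Strc*, *Ceacam10*, *Myo7a*, *Pou4f3*, *C1qa* and the macrophage genes at 0 were named after their values were seen. *Ccer2* and *C1qtnf12* matched no symbol. Steps in the low values were read as FPKM times the transcript length after taking off 200 bases, over 4063 and 4403 genes with 1 transcript in GENCODE, and 95 and 39 values lay at the step where neighbouring stretches held 5 and 3. Python 3.11.15 was used with pandas 2.3.3, numpy 2.4.6 and matplotlib 3.10.9. Only the count at 1.5-fold was checked on simulated data, with changes set well past that fold and without noise.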

Additional observations from a re-analysis of the deposited data

How the results depend on the processing

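No paired analysis was possible because the deposited table gives 1 combined value per population, and for the same reason no library could be left out. Of the genes counted as higher in Lgr6+ progenitors, 2 became 1 with a plain ratio of FPKM, when either population had to reach an FPKM of 5 and when both had to reach 1, since *Ceacam16* then had no ratio or was not kept. Of those counted as higher in Lgr5+ progenitors, 2 became 1 after quantile normalization, which took *Tectb* under 1.5-fold, and 0 after scaling to the same sum and at a 2-fold threshold. They became 3 with a plain ratio and with the same upper quartile, where *Tecta* passed. *Otoa* was counted as higher in Lgr6+ progenitors under all 9 alternatives. The share of all genes higher in Lgr6+ progenitors was 17.4% without a filter and 18.2% at 2-fold, and that higher in Lgr5+ progenitors was 13.5% and 11.7%. Scaling to the same sum moved the split of all kept genes to 37.2% and 16.5%. The values have no error. *Ceacam16* moved from 1.28 to 3.93 with a pseudocount of 0.1, and *Otogl* lay between -0.48 and 0.04. The effect of depth was not tested.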
